A study of Mus musculus with 6 samples.

Results

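Granzymes, perforin and their granule partners are described here through 7 genes, Gzma, Gzmb, Gzmk, Prf1, Nkg7, Ctsw and Srgn, chosen by symbol and all found among the 15686 genes of the deposited table. Values were FPKM (RPKM if reads rather than fragments were counted, which nothing states), reads normalised to gene length and library size, in CD4+ T cells that a kit separated from mouse spleen after haematopoietic stem cell transplantation. There were 3 libraries labelled allogeneic, with C57BL/6 donors and Balb/c hosts. Another 3 were labelled syngeneic, with Balb/c as donor and host. The host strain was thus the same in both groups, while the donor strain differed. Type of transplant and donor strain cannot be told apart in this design. The question of the design was which genes and pathways differ between the groups. The labels give no age, sex, conditioning, time after transplantation or origin of the replicates, and a p-value here covers no more than the variation among these samples, possibly technical.

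Cytotoxic lymphocytes store granzymes, which are serine proteases, together with perforin in secretory lysosomes, and release both toward a target cell. Perforin opens the target membrane and lets granzymes in. Serglycin, encoded by Srgn, is the proteoglycan core on which this cargo is packed, and many myeloid cells use it for their own granules. CD8 T cells and natural killer (NK) cells are the usual carriers of these proteins, and activated CD4 T cells can also make them.

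The group labels were read against genes that differ between the strains, and 5 of 6 such genes were lower and 1 higher in the libraries labelled allogeneic, against the labels in the case of Ighg2c and H2-Ea-ps. Ighg2c, an antibody constant gene of C57BL/6 that Balb/c lacks in this form, reached 16.3 ± 0.247 FPKM in the libraries labelled allogeneic, against 9605 ± 270 FPKM in those labelled syngeneic (SD, n = 3 each, as throughout). Trbv26 (0.402 ± 0.438 against 56.5 ± 3.25 FPKM) lay the same way, and H2-Ea-ps, silent in C57BL/6, was at 132.5 ± 3.02 against 21.1 ± 2.73 FPKM. In the titles, S stands in the names of the allogeneic libraries and A in the syngeneic ones, and every direction below is between libraries as labelled. The group labels may be exchanged, and each fall or rise given here would then turn round. Implied depth was 15.7 to 16.3 M reads in the libraries labelled allogeneic, against 14.8 to 17.0 M in those labelled syngeneic. Cd4, the marker of the sort, was at 76.2 ± 2.72 against 183 ± 3.40 FPKM, and the geometric mean of the 4 CD3 chains Cd3e, Cd3d, Cd3g and Cd247, which carry the T cell receptor signal, was at 32.3 ± 0.654 against 68.7 ± 2.99 FPKM. In bulk samples, fewer cells of a type and less RNA per cell cannot be told apart.

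For FPKM as deposited, all 7 granule genes fell in libraries labelled allogeneic, by amounts that ran from a log2 fold change of −3.40 for Gzmb to −0.25 for Srgn. Limma with Benjamini-Hochberg adjustment over 13235 tested genes, at a threshold of 0.05, called 26.6% of them lower and 67.4% in either direction. The groups did not overlap for any of the 7, and 29.1% of tested genes were lower without overlap. The median log2 fold change of the 7 was −1.10, beside 0.09 over all genes tested. All fold changes are differences of mean log2(FPKM + 1), allogeneic less syngeneic as labelled, a scale that understates those of low genes. Read relative to the CD3 chains, the 7 came apart into 3 classes, with Gzmb, Prf1 and Gzma lower, Gzmk, Nkg7 and Ctsw not past the test and Srgn higher. On that scale 86.2% of all genes tested were called higher and 4.13% lower. The calls of Gzmk, Nkg7 and Ctsw changed when single chains were used as the scale.

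**Figure D1:**
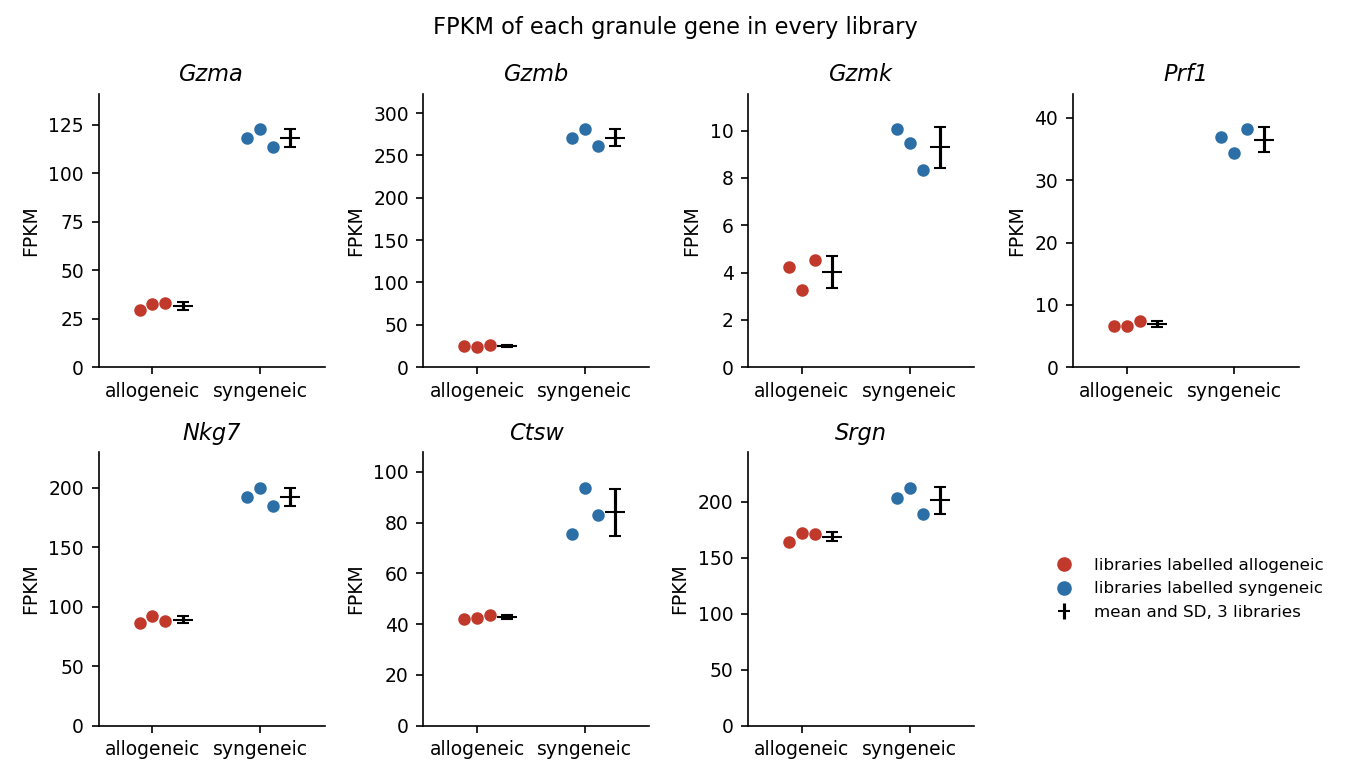
FPKM of each granule gene, 1 panel per gene, with a point for each of the 3 libraries per group and the mean and SD beside them. All syngeneic points lie above all allogeneic points in every panel, by about 10.9-fold in the means for Gzmb and 1.19-fold for Srgn.

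Granzyme B, the protease that cleaves after aspartate and activates caspases in the target, showed the largest difference. Gzmb (ENSMUSG00000015437, chromosome 14, 56258838 to 56262260, minus strand, GRCm38) was at 24.6, 24.0 and 25.7 FPKM in the libraries labelled allogeneic, against 270.2, 281 and 262 FPKM in those labelled syngeneic. The lowest syngeneic library was thus far above the highest allogeneic one (log2 fold change −3.40, SE 0.0415, limma adjusted p = 5.01e-08). By FPKM it ranked between 2380 and 2584 among all genes of a library labelled allogeneic, against ranks between 190 and 198 in one labelled syngeneic. Of the 13230 symbols compared, 66 had a lower log2 fold change. The values rested on 574, 557 and 579 reads in the libraries labelled allogeneic, against 6581, 6809 and 5573 in those labelled syngeneic.

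Granzyme A, a tryptase-type granzyme that acts without caspases, differed less. Gzma (ENSMUSG00000023132, chromosome 13, 113093825 to 113100981, minus strand) was at 29.2, 32.4 and 33.3 FPKM in the libraries labelled allogeneic, against 118, 123 and 113 FPKM in those labelled syngeneic. The groups stood well apart, with little spread inside either (−1.87, SE 0.0565, limma adjusted p = 8.66e-07). Granzyme K, a second tryptase encoded near Gzma on the same chromosome, was the lowest of the 7 genes in every library. Gzmk (ENSMUSG00000042385, 113171608 to 113225908, minus strand) was at 4.25, 3.25 and 4.55 FPKM in the libraries labelled allogeneic, against 10.1, 9.47 and 8.34 FPKM in those labelled syngeneic. Its log2 fold change was −1.04 (SE 0.115, limma adjusted p = 0.000219), the least precise of the 7, and it rested on 73 to 99 reads per library labelled allogeneic, against 172 to 237 per library labelled syngeneic.

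Perforin, the pore former without which granzymes do not reach the cytosol, came second in size. Prf1 (ENSMUSG00000037202, chromosome 10, 61297833 to 61304680, plus strand) was at 6.64, 6.63 and 7.48 FPKM in the libraries labelled allogeneic, against 37.0, 34.4 and 38.2 FPKM in those labelled syngeneic. No library of one group came near the other (−2.24, SE 0.0610, limma adjusted p = 5.68e-07).

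Nkg7, a granule membrane protein needed for efficient exocytosis (ENSMUSG00000004612, chromosome 7, 43437073 to 43438249, plus strand), was at 86.5, 92.4 and 88.2 FPKM in the libraries labelled allogeneic, against 192, 200.1 and 185 FPKM in those labelled syngeneic. Its groups were separate (−1.10, SE 0.0430, limma adjusted p = 2.19e-06). Ctsw, a cysteine protease found mainly in cytotoxic lymphocytes (ENSMUSG00000024910, chromosome 19, 5465043 to 5468507, minus strand), was at 42.2, 42.5 and 43.7 FPKM in the libraries labelled allogeneic, against 75.3, 93.7 and 83.1 FPKM in those labelled syngeneic. The syngeneic libraries spread more than the allogeneic ones (−0.95, SE 0.0758, limma adjusted p = 4.56e-05). Exons of Ctsw share 9 bases with Fibp on the opposite strand, and the library kit as named does not mark strand.

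Srgn differed least. The serglycin gene (ENSMUSG00000020077, chromosome 10, 62493833 to 62527451, minus strand) was at 164, 172 and 171 FPKM in the libraries labelled allogeneic, against 203, 213 and 189 FPKM in those labelled syngeneic. Its groups lay close but did not overlap (−0.25, SE 0.0503, limma adjusted p = 0.00384), and quantile normalization ended the call (0.02, limma adjusted p = 0.667). By FPKM it ranked between 255 and 270 in libraries labelled allogeneic, against ranks between 255 and 279 in those labelled syngeneic, nearly the same place.

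The order of the 7 genes by FPKM, which is per length, changed between the groups. In the libraries labelled allogeneic the order from high to low was Srgn, Nkg7, Ctsw, Gzma, Gzmb, Prf1 and Gzmk, and no neighbours in that order overlapped over the 3 libraries. In those labelled syngeneic it was Gzmb, Srgn, Nkg7, Gzma, Ctsw, Prf1 and Gzmk, where Srgn and Nkg7 overlapped. Gzmb was therefore the fifth of the 7 in the libraries labelled allogeneic and the first in those labelled syngeneic.

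Composition within a library does not depend on how the library was scaled. Summed FPKM of the 7 genes was 368 ± 9.26 in the libraries labelled allogeneic, against 913 ± 38.4 in those labelled syngeneic, or 0.112% ± 0.00261 and 0.244% ± 0.00688 of all FPKM. Srgn made up 45.9% ± 0.187 of that sum in the libraries labelled allogeneic, against 22.1% ± 0.507 in those labelled syngeneic. Gzmb made up 6.73% ± 0.261 against 29.7% ± 0.203, so the most abundant gene of one group was a minor part in the other. Gzma held 8.59% ± 0.371 against 12.9% ± 0.0895 and Prf1 1.88% ± 0.113 against 4.01% ± 0.377. Nkg7 held 24.2% ± 0.587 against 21.1% ± 0.110 and Ctsw 11.6% ± 0.214 against 9.20% ± 0.790, while Gzmk overlapped between the groups at 1.09% ± 0.192 against 1.02% ± 0.0829. Each of the other shares gave a two-sided exact permutation p = 0.1, the smallest that 3 libraries against 3 allow, and Gzmk gave an exact p = 0.6 (Benjamini-Hochberg adjusted 0.115 and 0.62 over 31 tests of composition).

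**Figure D2:**
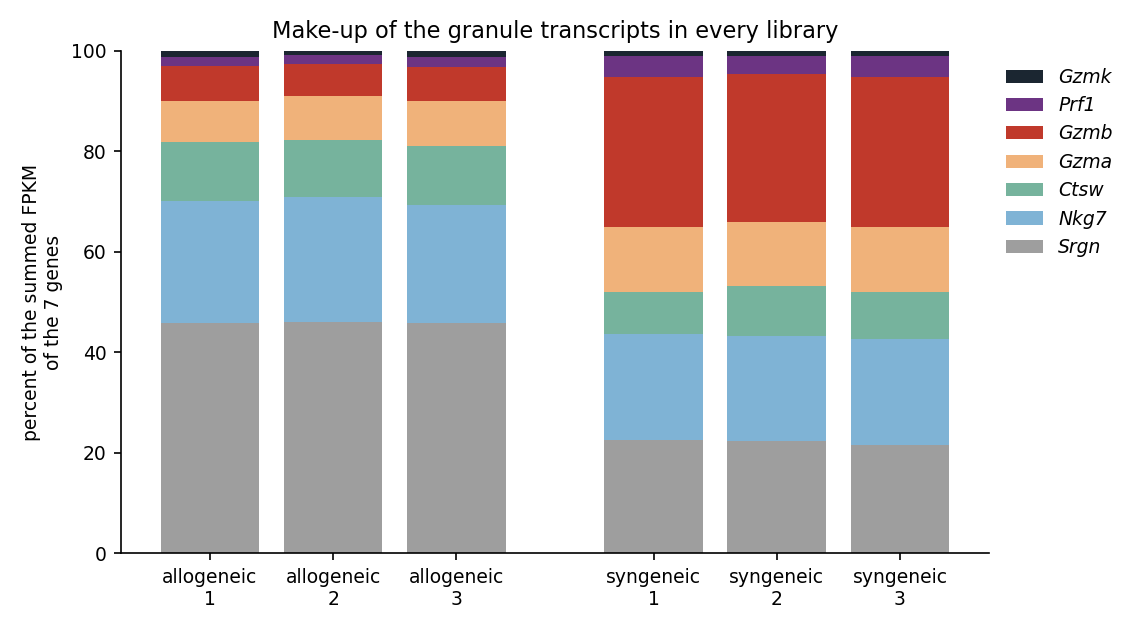
Stacked bars of the share of each granule gene in the summed FPKM of the 7 genes, 1 bar per library. Srgn fills 45.7 to 46.1% of the bars labelled allogeneic, against 21.5 to 22.5% of those labelled syngeneic, and Gzmb 6.43 to 6.88% against 29.4 to 29.8%.

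Among the 3 granzymes alone, Gzma was the main transcript in the libraries labelled allogeneic and Gzmb in those labelled syngeneic. Gzma was 50.3, 54.3 and 52.4% of summed granzyme FPKM in the libraries labelled allogeneic, against 29.6, 29.7 and 29.6% in those labelled syngeneic. Gzmb was 42.3, 40.2 and 40.5% against 67.8, 68.0 and 68.2%, and Gzmk 7.32, 5.45 and 7.15% against 2.53, 2.29 and 2.18%. None of these shares overlapped between the groups (two-sided exact permutation p = 0.1 for each). The log2 ratio of Gzma to Gzmb was 0.35 ± 0.0938 in the libraries labelled allogeneic, against −1.20 ± 0.00671 in those labelled syngeneic. Of the 21 pairs among the 7 genes, 18 had ratios without overlap, and the exceptions were the pairs among Gzmk, Nkg7 and Ctsw. Among all genes tested, 72.5% did not overlap between the groups in FPKM as deposited. The share over pairs of other genes was not computed, so the count is a description only.

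Relative to the CD3 chains, each library was divided by its geometric mean of the 4 chains before the same limma fit. Under that scale the median gene stood at a log2 fold change of 1.01, and limma called 4.13% of genes lower, 86.2% higher and 90.3% in either direction, so a gene at 0 followed the CD3 chains and lay below most other genes. The chains themselves ran from −0.17 for Cd3d and −0.15 for Cd247 to 0.14 for Cd3e and 0.19 for Cd3g, all past the limma test. Exons of Cd247 share 56.4% of their bases with Pou2f1 on the opposite strand, and leaving this chain out changed no call of the 7 genes.

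Gzmb stayed lower by more than any other of the 7. Its ratio to the CD3 mean was 0.763, 0.758 and 0.781 in libraries labelled allogeneic, against 3.84, 3.99 and 4.01 in those labelled syngeneic. The gene was below the CD3 chains in the allogeneic libraries and several-fold above them in the syngeneic ones (−2.33, SE 0.0423, limma adjusted p = 2.54e-08). Prf1 had ratios of 0.206, 0.209 and 0.227 against 0.525, 0.488 and 0.585 (−1.23, SE 0.0762, limma adjusted p = 1.47e-06). Gzma had 0.907, 1.02 and 1.01 against 1.68, 1.74 and 1.74 (−0.80, SE 0.0573, limma adjusted p = 3.37e-06). All 3 were lower against each of the 4 chains taken singly, with Gzmb between −2.52 and −2.16, Prf1 between −1.41 and −1.07 and Gzma between −0.99 and −0.62 on the log2 scale.

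Nkg7, Gzmk and Ctsw did not pass the test on this scale. Nkg7 had ratios of 2.69, 2.92 and 2.68 in libraries labelled allogeneic, against 2.73, 2.84 and 2.83 in those labelled syngeneic, with a log2 difference of −0.02 (95% interval −0.14 to 0.10, limma adjusted p = 0.701). Gzmk had 0.132, 0.103 and 0.138 against 0.143, 0.134 and 0.128 (−0.11, interval −0.35 to 0.13, limma adjusted p = 0.333), and Ctsw 1.31, 1.34 and 1.33 against 1.07, 1.33 and 1.27 (0.12, interval −0.07 to 0.31, limma adjusted p = 0.194). All 3 pairs of groups overlapped. The choice of chain decided these calls, since Nkg7 was lower against Cd3e (−0.16, limma adjusted p = 0.0118) and against Cd3g (−0.21, limma adjusted p = 0.0320), Gzmk lower against Cd3g (−0.28, limma adjusted p = 0.0456), and Ctsw higher against Cd3d (0.29, limma adjusted p = 0.0119) and Cd247 (0.28, limma adjusted p = 0.0188). Their signs also turned with the chain, Nkg7 and Gzmk being above 0 against Cd3d (0.15 and 0.04) and Cd247 (0.14 and 0.03) and Ctsw below 0 against Cd3e (−0.02) and Cd3g (−0.07).

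Srgn rose relative to the CD3 chains. Its ratio was 5.09, 5.44 and 5.19 in libraries labelled allogeneic, against 2.89, 3.02 and 2.89 in those labelled syngeneic, without overlap (0.83, SE 0.0457, limma adjusted p = 7.99e-07). The rise lay below the 1.01 of the median gene and held against each chain, from 0.64 with Cd3g to 1.01 with Cd3d. Most markers of other cells that carry serglycin were higher in the libraries labelled allogeneic, but on the other scale, that of deposited FPKM. On that scale Srgn itself was lower (−0.25, limma adjusted p = 0.00384), and 40.7% of all genes tested were called higher. All 5 of the neutrophil precursor markers were called higher for FPKM as deposited, summing to 1317 to 1394 against 190.1 to 243 FPKM, with Mpo, the myeloperoxidase of granulocyte precursors, at 674 ± 24.2 against 42.6 ± 8.08 FPKM. Of 8 mature neutrophil markers 7 were higher (2829 to 2952 against 1084 to 1268 FPKM summed), as were 9 of 9 mast cell and basophil markers (314 to 328 against 149 to 169.7), 8 of 8 macrophage and monocyte markers (1296 to 1344 against 330.1 to 366) and 4 of 5 megakaryocyte and platelet markers (51.4 to 55.6 against 31.9 to 36.3). Their part in the level of Srgn was not tested.

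**Figure D3:**
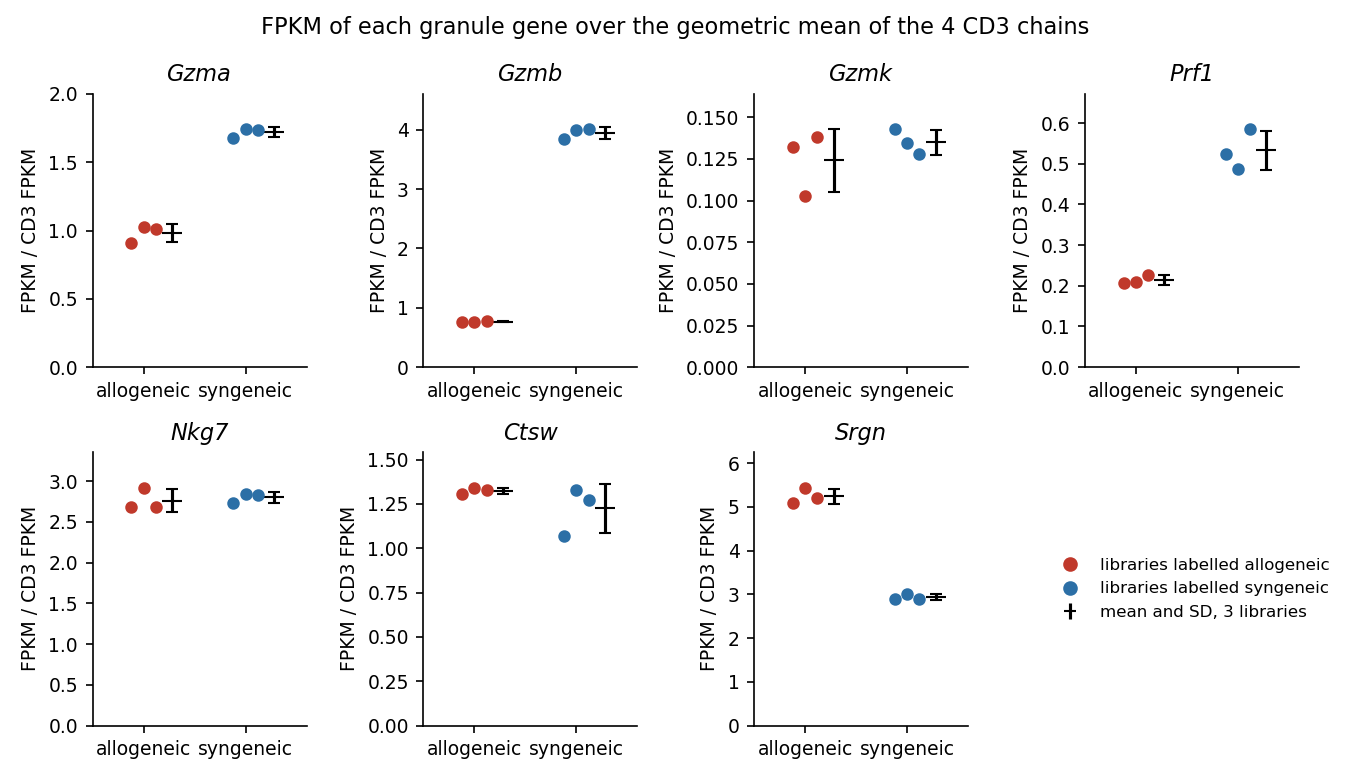
FPKM of each granule gene over the geometric mean of the 4 CD3 chains, with a point per library and the mean and SD beside them. Gzmb, Prf1 and Gzma lie lower in the libraries labelled allogeneic, Nkg7, Gzmk and Ctsw overlap, and Srgn lies higher, at 5.09 to 5.44 against 2.89 to 3.02.

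**Figure D4:**
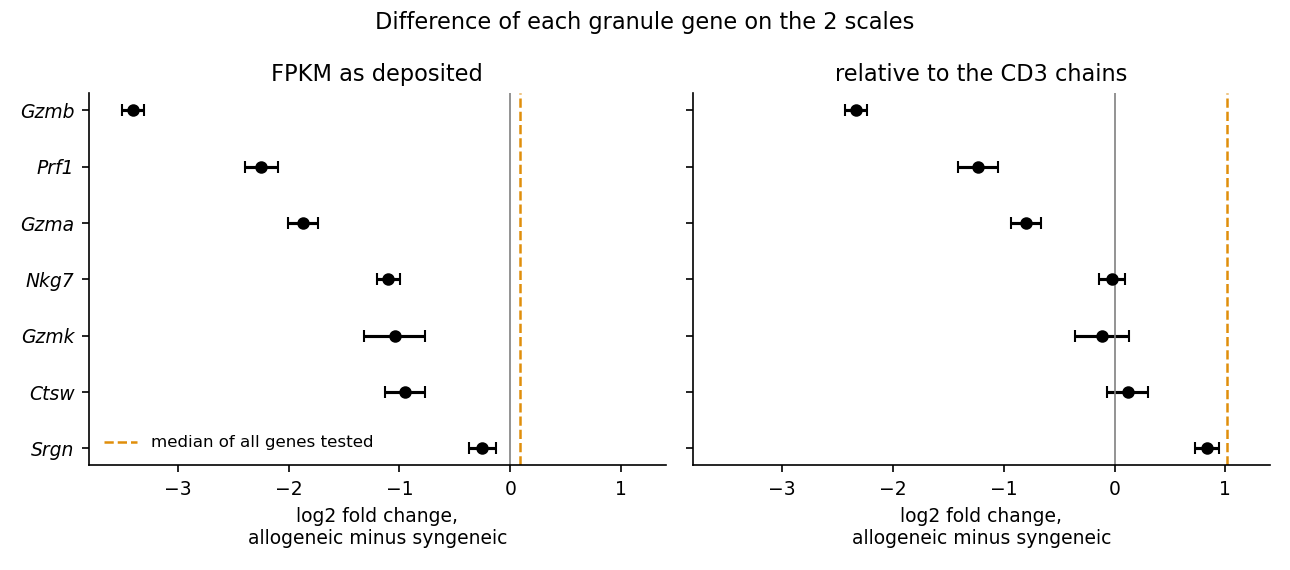
Log2 fold changes, libraries labelled allogeneic minus libraries labelled syngeneic, with 95% intervals from limma, for FPKM as deposited on the left and relative to the CD3 chains on the right. The dashed line is the median of all genes tested, 0.09 on the left and 1.01 on the right, and all 7 genes lie to its left in both panels.

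Other lymphocytes that carry these proteins were read by their markers, for FPKM as deposited unless stated. On that scale 40.7% of all genes tested were called higher and 26.6% lower. Both CD8 markers were lower in the libraries labelled allogeneic, Cd8b1 at 1.54, 1.25 and 1.33 FPKM against 11.7, 10.8 and 12.8, and Cd8a at 0.0338, 0.119 and 0.0702 FPKM against 2.74, 3.06 and 2.87. Relative to the CD3 chains they stood at −1.60 and −1.43 on the log2(FPKM + 1) scale, which compresses them, since Cd8a rested on 2, 7 and 4 reads in the libraries labelled allogeneic and its means differed 38.9-fold. NK markers were split, with 3 of the 7 tested higher and 4 lower, and their summed FPKM of 291 to 305 against 127 to 147 was mostly Tyrobp and Fcer1g, which myeloid cells also express. Ncr1, the NK receptor NKp46, was at 9.29 ± 2.04 against 0.349 ± 0.0702 FPKM, and Klrd1, the CD94 chain shared with activated T cells, at 3.84 ± 0.266 against 28.8 ± 2.24 FPKM. Klrb1b was listed at 0 in 2 libraries labelled allogeneic. Of 6 gamma delta T cell markers tested 3 were higher (39.1 to 43.1 against 25.3 to 29.9 FPKM summed over 8), and of 5 regulatory T cell markers 2 were higher and 3 lower (67.1 to 68.8 against 116 to 129). The regulatory T cell sum was lower although Foxp3 (15.6 ± 0.203 against 5.99 ± 0.227 FPKM) and Ikzf2 (9.13 ± 0.482 against 4.08 ± 0.283 FPKM) were higher. Their log2 fold changes were 1.25 and 0.99, against −1.82 for Ctla4, −0.97 for Tnfrsf18 and −0.61 for Il2ra. Plasmacytoid dendritic cell markers (94.4 to 104 against 116 to 125) had 2 higher and 1 lower of 4 tested. That sum was mostly Bst2, the 1 called lower (91.6 ± 4.57 against 117 ± 5.02 FPKM). Siglech (1.29 ± 0.208 against 0.119 ± 0.0794 FPKM) and Tcf4 (2.18 ± 0.0957 against 1.29 ± 0.0875 FPKM) were higher, and Ccr9 did not pass the test. B cell markers summed to 20.0 to 21.9 against 31.3 to 35.9 FPKM, plasma cell markers to 489.9 to 511 against 807 to 834, and red cell markers to 385 to 406 against 5.19 to 6.04. Whether these cells contributed to the granule transcripts was not tested.

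The regions around the start sites of Gzmb, Prf1 and Gzma, which fell relative to the CD3 chains, and of Srgn, which rose, are shown to let their letters be compared. RefSeq windows of 250 bases before to 50 after the start (GRCm38.p6) were found for 6 of the 7 genes, and Srgn has 2, of which the one at the start of the GENCODE gene is given. Capitals mark matches on either strand to GTGTGA (T-box factors), TGTGGT (RUNX factors), TGANTCA (AP-1) and TTCNNNGAA (STAT factors), and no matches overlapped. The windows, each read 5′ to 3′ on the strand of the gene, are Gzmb at chr14:56262285-56262584 (minus), Prf1 at chr10:61297586-61297885 (plus), Gzma at chr13:113100932-113101231 (minus) and Srgn at chr10:62527396-62527695 (minus).
Gzmb: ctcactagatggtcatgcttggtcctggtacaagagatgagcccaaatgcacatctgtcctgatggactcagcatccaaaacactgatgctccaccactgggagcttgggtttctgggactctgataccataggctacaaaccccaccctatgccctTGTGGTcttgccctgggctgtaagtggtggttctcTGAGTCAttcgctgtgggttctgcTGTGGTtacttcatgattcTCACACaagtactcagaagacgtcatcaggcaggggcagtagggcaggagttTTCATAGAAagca
Prf1: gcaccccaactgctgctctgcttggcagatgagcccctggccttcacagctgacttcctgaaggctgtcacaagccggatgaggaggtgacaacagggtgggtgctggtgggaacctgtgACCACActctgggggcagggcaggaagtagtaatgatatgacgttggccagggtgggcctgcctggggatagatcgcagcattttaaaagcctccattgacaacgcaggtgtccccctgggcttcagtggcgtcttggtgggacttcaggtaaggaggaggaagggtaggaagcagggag
Gzma: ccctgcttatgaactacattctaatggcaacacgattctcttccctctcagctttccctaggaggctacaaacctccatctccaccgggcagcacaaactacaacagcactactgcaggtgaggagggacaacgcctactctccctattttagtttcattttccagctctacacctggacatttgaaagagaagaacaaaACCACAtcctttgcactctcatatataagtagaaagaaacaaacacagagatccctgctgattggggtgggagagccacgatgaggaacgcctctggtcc
Srgn: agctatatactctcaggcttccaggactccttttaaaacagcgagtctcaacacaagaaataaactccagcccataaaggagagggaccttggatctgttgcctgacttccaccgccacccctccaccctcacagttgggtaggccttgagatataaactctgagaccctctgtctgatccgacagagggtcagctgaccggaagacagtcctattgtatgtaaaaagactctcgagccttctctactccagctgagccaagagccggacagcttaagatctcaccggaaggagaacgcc
The Gzmb window held 1 T-box match that ended 9 bases before the start, 2 RUNX matches that ended 28 and 87 bases before it, 1 AP-1 match that ended 51 bases before it, and 1 STAT match downstream. The Prf1 and Gzma windows each held 1 RUNX match. The Srgn window shown held none of the 4 motifs, and its other window held 1 RUNX match that ended 196 bases before the start. Windows of genes not past the test relative to the CD3 chains also held matches. Gzmk had 2 T-box matches, and Nkg7 had 1 T-box, 1 RUNX and 1 STAT match. Among 27025 gene promoters of the same length 14.4% held the T-box letters, 16.9% the RUNX letters, 7.93% the AP-1 letters and 8.47% the STAT letters. A match describes letters and is not evidence of binding.

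Beyond the 7 genes, 2 other granzymes were measured. Gzmc, a granzyme of strongly activated killer cells encoded near Gzmb, was at 0.688, 0.346 and 0.285 FPKM in the libraries labelled allogeneic, from 10, 5 and 4 reads, and at 8.90, 5.97 and 7.76 FPKM in those labelled syngeneic, from 135, 90 and 103 reads. It fell by 2.56 on the log2 scale (SE 0.161, limma adjusted p = 1.57e-05) and stood at −1.91 relative to the CD3 chains, as Gzmb did in direction. Gzmm, a granzyme that cleaves after methionine, was at 1.67, 2.31 and 1.43 FPKM against 2.60, 2.62 and 2.33, with a log2 fold change of −0.34 as deposited (limma adjusted p = 0.0474). That call was lost when any library but allogeneic replicate 2 was left out (−0.38 to −0.24, limma adjusted p between 0.0685 and 0.129), and also with no filter (limma adjusted p = 0.0529), a pseudocount of 0.1 (limma adjusted p = 0.0514) or voom (limma adjusted p = 0.0808). Gzmm went the other way relative to the CD3 chains and was called higher (0.40, limma adjusted p = 0.0266), a call lost with Cd3e or Cd3g alone as the scale and without allogeneic replicate 2 or any syngeneic library (0.25 to 0.41, limma adjusted p between 0.0503 and 0.0921). Gzmd, Gzme, Gzmf, Gzmg and Gzmn were not analysed here.

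Enzymes that activate granzymes and the inhibitors that hold them in check did not move as 1 group. Of 9 such genes 4 fell and 3 rose, beside 26.6% and 40.7% of all genes tested. Their median log2 fold change was −0.05, beside 0.09 for all genes. The largest falls were in a pair of intracellular serpins, Serpinb6b, which inhibits granzyme A in mice, to 7.63 ± 0.872 FPKM in the libraries labelled allogeneic, against 115 ± 6.42 in those labelled syngeneic (−3.76), and Serpinb9, which inhibits granzyme B, to 7.35 ± 0.516 against 52.5 ± 1.90 (−2.68). Another serpin, Serpinb6a (10.3 ± 0.707 against 4.42 ± 0.345 FPKM, 1.06) and the aminopeptidase cathepsin H, Ctsh (11.9 ± 0.0363 against 5.17 ± 0.363 FPKM, 1.07), rose. Ctsc, the dipeptidyl peptidase that trims granzyme precursors into active form, was at 39.6 ± 2.01 against 39.4 ± 0.352 FPKM and its inhibitor Cst7 at 50.9 ± 2.41 against 52.9 ± 5.05 FPKM. Neither passed the test (limma adjusted p = 0.903 and 0.557), and both were named after their values were seen.

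Genes that build and sort the granule as a lysosome had 5 of 12 higher and 2 lower, beside 40.7% and 26.6% of all genes tested, with a median of 0.13. The share called higher was thus near that of all genes. Lamp1 and Cd63, membrane proteins of lysosomes and granules in many cell types, were at 137 ± 1.01 against 64.3 ± 1.79 FPKM (1.08) and 13.4 ± 0.249 against 6.15 ± 0.349 FPKM (1.01). Igf2r, a mannose-6-phosphate receptor that sorts granzymes, was at 8.80 ± 0.534 against 16.4 ± 0.941 FPKM (−0.83), and Ap3d1, a subunit of the AP-3 sorting adaptor, at 21.2 ± 0.440 against 24.0 ± 0.567 FPKM (−0.17). The macrophage markers given beside Srgn were higher in the same libraries as Lamp1 and Cd63, and their part was not tested.

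Of 19 genes of granule docking and fusion 9 fell and 6 rose, beside 26.6% and 40.7% of all genes tested, with a median of −0.08. Rab27a, the GTPase that docks granules at the membrane, was at 26.9 ± 0.728 against 61.3 ± 0.936 FPKM (−1.16), and Sytl3, a synaptotagmin-like partner of RAB27, at 1.80 ± 0.0806 against 14.2 ± 1.18 FPKM (−2.44). Vamp7, a vesicle SNARE, rose (16.7 ± 0.666 against 10.4 ± 0.449 FPKM, 0.64). Relative to the CD3 chains Sytl3 stood at −1.56 and was the 1 gene of the list called lower, while 17 were called higher, beside 86.2% of all genes on that scale. Rab27a stood at −0.10 on that scale (limma adjusted p = 0.155) and was called lower with Cd3e (−0.24), with Cd3g (−0.28) or with 3 chains without Cd247 (−0.15) as the scale, and stood above 0 with Cd3d (0.08) or Cd247 (0.06).

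Transcription factors of cytotoxic genes moved both ways, 15 of 20 lower and 5 higher for FPKM as deposited, beside 26.6% and 40.7% of all genes, with a median of −0.46. The balance turned relative to the CD3 chains, with 7 lower and 13 higher and a median of 0.37, beside 4.13% and 86.2% of all genes. The list was not split into factors that drive and factors that restrain these genes. Tbx21, which encodes T-bet, was at 9.40, 9.24 and 11.0 FPKM in the libraries labelled allogeneic, against 26.5, 30.2 and 32.1 FPKM in those labelled syngeneic (−1.49, SE 0.0888, limma adjusted p = 1.23e-05). Irf4, induced by receptor signals, fell by 1.44, and Prdm1, the BLIMP-1 factor, chosen after its values were seen, fell by 1.35. Prdm1 was also on the list of 6 plasma cell markers, and all 6 were called lower, beside 26.6% of all genes. The rises were led by Zeb2 (6.94 ± 0.264 against 1.33 ± 0.0957 FPKM, 1.77), a repressor that works with T-bet in effector cells and is also used by myeloid cells, and by Zfp683 (6.43 ± 0.475 against 1.35 ± 0.641 FPKM, 1.69), the HOBIT factor of tissue-resident lymphocytes. Eomes, the T-box relative of T-bet, also named after its values were seen, was at 3.01, 2.62 and 3.16 FPKM against 1.23, 1.17 and 1.36 (0.80). Relative to the CD3 chains Tbx21 stood at −0.47 and Eomes at 1.50, both past the test, so these T-box genes lay on opposite sides on both scales.

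Genes that assemble the glycosaminoglycan chains of serglycin and other proteoglycans rose in 9 of 15 and fell in 4. Of all genes tested 40.7% rose and 26.6% fell, and the median of the list was 0.28. Csgalnact2 (19.1 ± 0.525 against 7.94 ± 0.764 FPKM, 1.17) and Csgalnact1 (1.82 ± 0.269 against 0.551 ± 0.0965 FPKM, 0.86), which start chondroitin sulphate chains, rose most. Xylt2, which adds the first sugar (7.91 ± 0.201 against 12.3 ± 0.852 FPKM, −0.57), and B4galt7, which adds the next (9.66 ± 1.10 against 14.7 ± 0.114 FPKM, −0.56), fell most. Over all 6 lists 36 of 77 measured genes fell and 28 rose for FPKM as deposited, beside 26.6% and 40.7% of all genes tested, and relative to the CD3 chains 12 were lower and 63 higher, beside 4.13% and 86.2%.

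**Figure D5:**
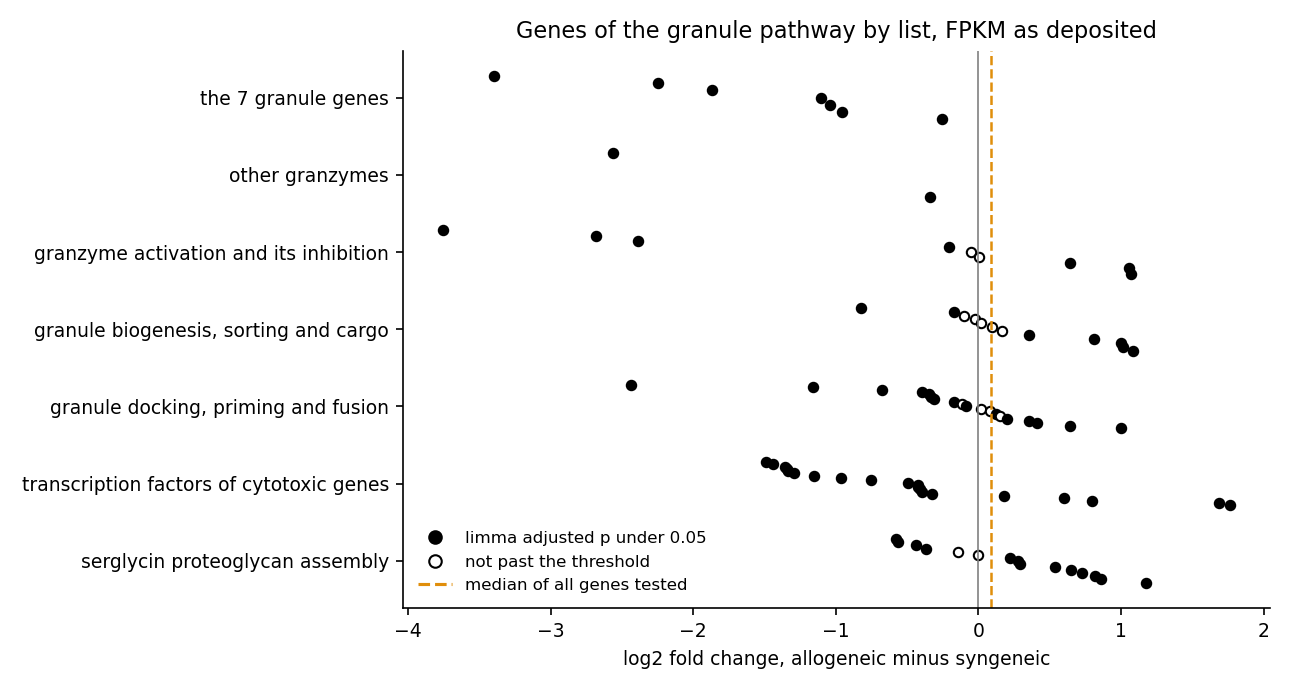
Log2 fold change for FPKM as deposited of the 7 granule genes and of 6 lists of pathway genes, libraries labelled allogeneic minus libraries labelled syngeneic, filled where limma's adjusted p was under 0.05, with a dashed line at the median of all genes tested. The 7 granule genes all lie left of 0, while the lists spread to both sides, from −3.76 for Serpinb6b to 1.77 for Zeb2.

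Genes with the most similar profile over the 6 libraries, by Euclidean distance of log2(FPKM + 1) after centring each gene, were read as the nearest pair for each of the 7, as a description with no test. Nearest to Gzmb were Chil3 (distance 0.110) and Ly6a (0.235), nearest to Prf1 were Sema7a (0.146) and Eaf2 (0.203), and nearest to Gzma were Gbp2 (0.125) and Cd8a (0.126). Ly6a was among the genes that differ between the strains, against which the group labels were read. Nkg7 lay nearest to Tmie (0.0764) and Pik3r5 (0.0882), Gzmk to Klhdc1 (0.180) and Tmem198 (0.199), and Ctsw to Cacna1e (0.108) and Gprin3 (0.140). Srgn lay nearest to Fxyd5 (0.0453) and Cish (0.0668). The distance is on the compressed log2(FPKM + 1) scale, so a low gene can lie near one whose ratio of FPKM differs, as Cd8a does (38.9-fold between the group means, against 3.73-fold for Gzma).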

How the data were processed

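RNA of splenic CD4+ T cells was sequenced after ribosomal RNA depletion, per the labels' protocols. The values are FPKM per gene as the authors deposited them, and the submitters' processing notes name limma; for aligner, counter and build: not given in the sources used here. Multiplying by exon length (GENCODE M21, GRCm38) gave whole reads in all 6 libraries for 14580 of 15686 genes (92.9%, tolerance 0.05), from which depth was read.

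Log2(FPKM + 1) of 13235 genes (3 or more libraries at 1 FPKM or above) was fitted in limma 3.58.1 (R 4.3.3, with trend), with Benjamini-Hochberg adjustment over all of them. A second fit divided each library by the geometric mean of its 4 CD3 chains. The fit was tested on simulated data. Single values were compared by exact permutation of libraries, which cannot go below 0.1. Pathway genes named in the text are those with the lowest and highest changes of their list past the test, unless stated otherwise. One gene this rule names is not reported here. The 7 genes, the lists and the motifs were chosen with earlier results of these data known. Promoter sequences are from RefSeq. BLAST+ 2.17.0 found no long stretch of high identity between the 7 and another gene. Shorter alignments were not kept, so reads shared over short stretches were not assessed. The labels do not pair the replicate numbers. Alternatives covered the filter, pseudocount, scaling, voom on whole reads, the choice of CD3 chain, a replicate block and each library left out.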

Additional observations from a re-analysis of the deposited data

How the results depend on the processing

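Gzmb, Prf1 and Gzma kept direction and call in every setting run on both scales, with log2 fold changes of −3.50 to −3.21, −2.40 to −1.80 and −1.97 to −1.75 as deposited. The same-numbered samples did not deviate together (correlations −0.0310, 0.0160 and −0.0540), and a replicate block gave 5230 genes higher and 3443 lower as deposited, with all 7 granule genes lower, and 11436 and 553 relative to the CD3 chains. Equal upper quartiles gave 4563 higher and 4332 lower, quantile normalization 4684 and 4289, and rescaling without immunoglobulin and red cell genes 4539 and 4331. Leaving out 1 library gave 8259 to 8506 calls as deposited and 11695 to 11887 relative to the CD3 chains. The causes of the changes that follow were not tested.

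Relative to the CD3 chains, 2 of the 7 genes were called higher with Cd247 alone and with Cd3d alone. Of all 13235 genes tested, 11719 and 11764 were called higher in these settings. With Cd3g alone 5 of the 7 genes were called lower, beside 683 of all genes tested. Signs turned for Gzmk with Cd247 alone (0.0269), with Cd3d alone (0.0395) and without allogeneic replicate 2 (0.000387; −0.180 to 0.000387 over the libraries left out), for Nkg7 with Cd247 alone (0.138), with Cd3d alone (0.154) and without allogeneic replicate 3 (0.000401; −0.0617 to 0.000401), for Ctsw with Cd3e alone (−0.0231) and Cd3g alone (−0.0716), and for Rab27a with Cd247 alone (0.0601) and Cd3d alone (0.0754). As deposited, Srgn turned with quantile normalization (0.0199). Ctsc turned with equal upper quartiles (−0.0934), quantile normalization (−0.0136), rescaling without immunoglobulin and red cell genes (−0.0943), without allogeneic replicate 2 (−0.0140), without allogeneic replicate 3 (−0.0147) and without syngeneic replicate 3 (−0.000661), with −0.0147 to 0.0483 over the libraries left out, and Cst7 without syngeneic replicate 1 (0.0180, with −0.117 to 0.0180). The log2 ratio of Gzmk to Nkg7, −0.11 between the groups, was 0.0628 without allogeneic replicate 2, with −0.213 to 0.0628 over the libraries left out. Voom could not be run for Ctsw, whose reads did not come out whole. Among the 7 genes Gzmk rested on the fewest reads of those that came out whole, 73 to 99 per library labelled allogeneic.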

Other observations

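The balance of inhibitor to granzyme differed in direction between the serpins, in ratios chosen after their values were seen. Serpinb9 over Gzmb was 0.297 ± 0.0286 in the libraries labelled allogeneic, against 0.194 ± 0.00173 in those labelled syngeneic, while Serpinb6b over Gzma was 0.242 ± 0.0299 against 0.976 ± 0.0209. Eomes over Tbx21 was 0.297 ± 0.0199 against 0.0426 ± 0.00396 (SD, n = 3 each). Each had p = 0.1 by exact permutation (two-sided), the lowest that 3 libraries against 3 can give.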
